A study of Danio rerio with 20 samples.

Results

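The genes described here are the cell cycle and DNA replication genes of zebrafish (Danio rerio) larvae exposed to extracts of treated wastewater. They were chosen by gene symbol from a list of 39 names, and 38 of the 39 were found in the count table of 32520 genes. The symbol of 1 listed gene, incenp, was not matched. All 38 members had enough counts to be tested among 23121 genes, the lowest count of a member in a library being 41, for ccnb2. By role they comprised 9 DNA replication genes and 29 genes of mitosis. The mitosis genes comprised 5 cyclin and Cdk1 genes, 5 genes of mitotic kinases and the chromosomal passenger complex, 8 kinetochore and spindle checkpoint genes, 3 chromosome structure genes and 8 spindle and cytokinesis genes.

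The study, by its title, concerned soil aquifer treatment as a way to detoxify the effluent of a wastewater treatment plant. SEC larvae received an extract of secondary effluent, the water that leaves the biological treatment step, in their water at a stated final strength of 20x, from 4 to 5 days post fertilisation (dpf). The labels do not say relative to what the strength is counted, and name no carrier for the CTRL larvae. There were 4 groups of 5 libraries each: SEC JUN20 and CTRL JUN20 belonged to the sampling campaign JUN20, and SEC OCT20 and CTRL OCT20 to the campaign OCT20. All larvae were wild type, were taken whole at 5 dpf and were pooled, 10 larvae to a library. The labels do not tie the pools to spawns, so every p-value sets a difference against the spread between pools, which may be technical.

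Larvae of this age still grow. Dividing cells are found at the rim of the retina, in parts of the brain, in the gut, in the epidermis and in the blood-forming tissues, while most other cells of the larva no longer divide. In a dividing cell, the minichromosome maintenance (MCM) helicase unwinds DNA in S phase, and cyclins with the kinase Cdk1 then drive mitosis, in which kinetochores attach chromosomes to the spindle and a checkpoint delays their separation until all are attached. Transcripts of these genes rise and fall with the cycle, the replication genes peaking before the mitosis genes, and they are low in cells that have left it. Most of the roles named below are known from human cells and yeast.

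Library totals ran from 28.8 to 59.9 M counts. Levels are given as CPM, counts scaled to a common library size with trimmed mean of M-values (TMM) factors, and are compared between libraries for a gene, never between genes, since no gene lengths were used. Log2 fold changes are given ± their standard error, and each adjusted p comes from the quasi-likelihood test of edgeR, adjusted by Benjamini-Hochberg over all 23121 genes, with a threshold of 0.05. Values of the 5 libraries of a group stand in the order of replicates 1 to 5. The labels do not say whether equal numbers pair libraries of different groups, and the main fit does not pair them.

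In OCT20, 29 of the 38 members fell and none rose, where 8.49% of all genes tested fell and 9.54% rose. The 29 were 28 of the 29 mitosis genes and 1 of the 9 replication genes. In JUN20, 3 of the 38 fell and none rose, where 4.90% of all genes fell and 5.92% rose, so that the JUN20 count stood near the background share. DESeq2 called 29 members lower in OCT20, where it called 8.84% of all genes lower, and 3 in JUN20, where it called 6.30%. The main fit gives each gene 1 spread shared by the 4 groups, although the members spread most in CTRL OCT20 and least in CTRL JUN20. Its standard errors and p-values in a campaign therefore draw on the pools of the other campaign too. With the 2 groups of each campaign fitted alone, 20 members fell in OCT20 and 9 in JUN20, where 5.09% and 7.21% of all genes did. The contrast of 29 with 3 calls thus depends in part on the shared spread. All 3 JUN20 genes, bub1, ttk and nuf2, were also among the 29 of OCT20. The median log2 fold change of the members was -0.62 in OCT20 and -0.21 in JUN20, against -0.01 and -0.0049 over all genes tested. The fitted change was negative for 38 of 38 members in OCT20 and for 37 of 38 in JUN20, the exception being prc1b. In extracts of whole larvae, fewer dividing cells and less RNA per cell cannot be told apart.

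Summed over the 38 members, the level was 735, 659, 693, 607 and 598 CPM in the SEC OCT20 libraries, against 676, 1214, 972, 1129 and 614 CPM in the CTRL OCT20 libraries. The SEC OCT20 pools lay close together, whereas CTRL OCT20 replicates 1 and 5 lay among them and replicates 2, 3 and 4 lay well above. In JUN20 the sums were 807, 1123, 992, 911 and 820.0 CPM in SEC libraries, against 1054, 1133, 1072, 1011 and 1081 CPM in CTRL libraries. Here the CTRL pools lay close together and the SEC pools were spread, with SEC replicate 2 within the control range and replicates 1 and 5 the lowest. The log2 ratio of the mean sums, SEC over CTRL, was -0.48 in OCT20 and -0.20 in JUN20.

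**Figure D1:**
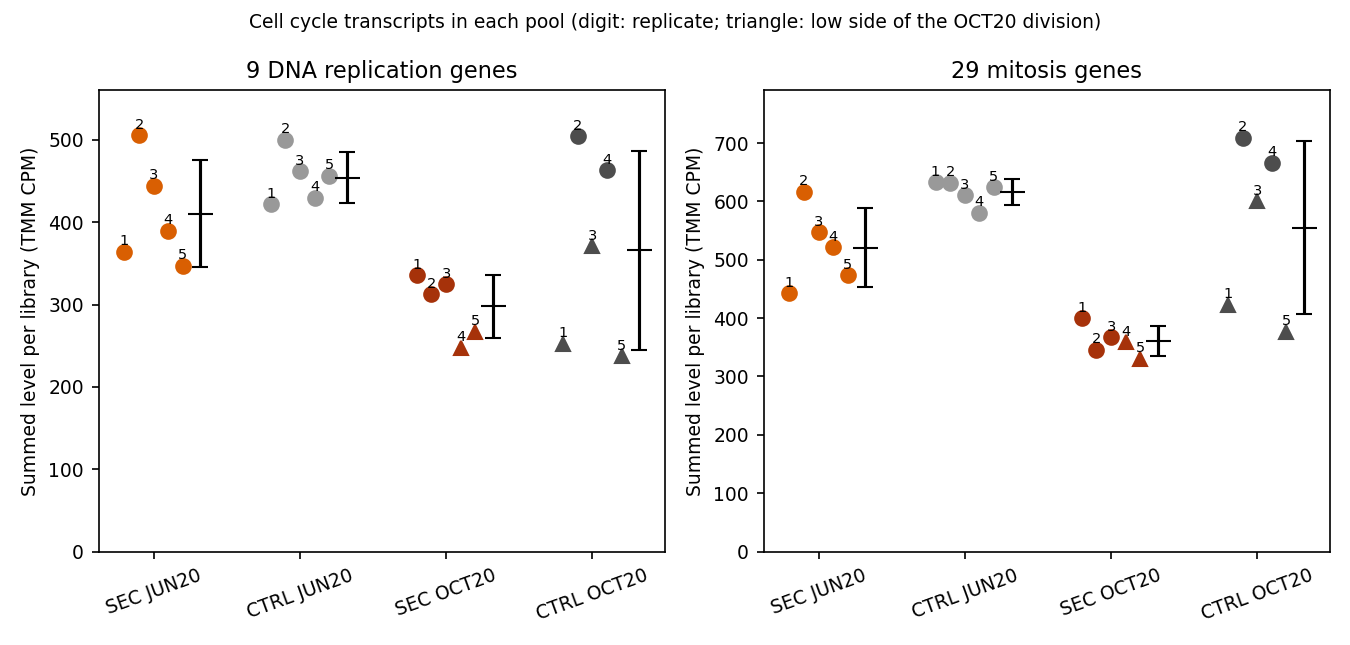
Summed level of the 9 DNA replication genes (left) and the 29 mitosis genes (right) in each of the 20 libraries, in TMM-scaled CPM, with the group mean and SD as the bar beside the 5 points of a group. CTRL OCT20 replicates 1 and 5 lie within or below the range of the SEC OCT20 pools for the replication genes. For the mitosis genes replicate 5 lies within that range and replicate 1 slightly above it. Triangles mark the OCT20 libraries of the low side of a division described below.

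The median within-group standard deviation of log2 CPM was 0.463 for the members in CTRL OCT20, against 0.177 for all genes tested. It was 0.157 against 0.131 in SEC OCT20, 0.214 against 0.119 in SEC JUN20 and 0.104 against 0.116 in CTRL JUN20. The median biological coefficient of variation of the members was 16.7%, against 9.06% for all genes.

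CTRL OCT20 replicates 1 and 5 stood apart from the other controls of their campaign, and every result that uses CTRL OCT20 rests partly on them. In replicate 5, 17 of the 38 members lay below the SEC OCT20 mean, and in replicate 1, 9 did, while in replicates 2, 3 and 4 none did. Of all genes tested, between 48.7% and 50.8% lay below the SEC OCT20 mean in each of these libraries. The pattern differed by role. Of the 9 replication genes, 8 lay below the SEC OCT20 mean in replicate 1 and 8 in replicate 5. Of the 29 mitosis genes, 17 in replicate 1 and 7 in replicate 5 still lay above every SEC OCT20 library, as did 29, 28 and 29 in replicates 2, 3 and 4. Without replicate 1, 28 members fell in OCT20, where 8.32% of all genes did. Without replicate 5, 30 did, where 9.43% of all genes did. The lowest count of any fit without 1 library was 21, without CTRL OCT20 replicate 2, where 7.53% of all genes fell.

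The counts by role are to be read beside the shares of all genes tested that fell, 8.49% in OCT20 and 4.90% in JUN20. Of the roles, the DNA replication genes had the smallest median change in OCT20. None of the 9 fell in JUN20 and only mcm7 fell in OCT20, while all 9 had a negative fitted change in both campaigns, with medians of -0.31 in OCT20 and -0.13 in JUN20. Summed over the 9 genes, the level was 298 ± 38.3 CPM in SEC OCT20 and 366 ± 121 CPM in CTRL OCT20 (SD, n = 5 each). In JUN20 it was 410.2 ± 64.97 CPM in SEC and 454 ± 30.9 CPM in CTRL.

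The gene mcm5 (ENSDARG00000019507) encodes a subunit of the MCM helicase. It had 26.3, 22.7, 24.02, 16.7 and 18.8 CPM in SEC OCT20, against 15.5, 40.2, 27.1, 33.9 and 15.3 CPM in CTRL OCT20. The control values enclosed the SEC values, with replicates 1 and 5 below every SEC pool and replicates 2, 3 and 4 above. The change was -0.28 ± 0.22, adjusted p = 0.449. In JUN20 mcm5 had 30.3, 40.3, 37.3, 32.6 and 28.3 CPM in SEC and 34.2, 46.4, 37.7, 37.2 and 38.04 CPM in CTRL, and the groups overlapped. That change was -0.20 ± 0.21, adjusted p = 0.621. Among the other helicase subunits, mcm2, mcm3, mcm4 and mcm6 had OCT20 changes between -0.42 and -0.17 and JUN20 changes between -0.29 and -0.10, none past the threshold.

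The sliding clamp of the DNA polymerases, pcna (ENSDARG00000054155), ordered the CTRL OCT20 pools in the same way. Its level was 72.9, 72.7, 74.01, 56.99 and 62.4 CPM in SEC OCT20, against 59.2, 122, 90.6, 109.7 and 51.99 CPM in CTRL OCT20. Control replicate 1 lay within the SEC range and replicate 5 below it, and replicates 2, 3 and 4 lay above it. The change was -0.35 ± 0.19, adjusted p = 0.237. In JUN20, SEC pools had 75.5, 117, 98.99, 84.9 and 72.2 CPM and CTRL pools had 89.04, 106, 99.7, 88.7 and 95.8 CPM, with SEC replicate 2 the highest of all 10. The JUN20 change was -0.10 ± 0.19, adjusted p = 0.804. For fen1, a nuclease that trims Okazaki fragments, and rrm1, the large subunit of ribonucleotide reductase, the OCT20 changes were -0.38 ± 0.21, adjusted p = 0.246, and -0.36 ± 0.18, adjusted p = 0.185.

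The sixth helicase subunit, mcm7 (ENSDARG00000101180), had the smallest standard errors of the 9. It had 50.9, 49.02, 50.9, 45.00 and 44.7 CPM in SEC OCT20, against 52.97, 58.3, 52.6, 55.7 and 51.7 CPM in CTRL OCT20. Every SEC pool lay below every control pool, and control replicate 5 was within 1 CPM of the highest SEC pools. The fall was small, -0.17 ± 0.06, adjusted p = 0.0437. This call was made in 17 of 30 alternative fits, in which the adjusted p ran from 0.00462 to 0.132. In JUN20 it had 57.6, 61.9, 57.4, 52.1 and 50.4 CPM in SEC and 66.6, 61.6, 59.96, 65.00 and 56.98 CPM in CTRL, with overlapping groups and a change of -0.15 ± 0.06, adjusted p = 0.0991.

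All 5 genes of cyclins and Cdk1 fell in OCT20, with a median of -0.67, and none did in JUN20, with a median of -0.25. Their summed level was 34.01 ± 3.45 CPM in SEC OCT20 and 54.9 ± 17.3 CPM in CTRL OCT20 (SD, n = 5 each).

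The mitotic cyclin ccnb3 (ENSDARG00000034855) had 4.79, 3.92, 4.06, 3.99 and 3.25 CPM in SEC OCT20, against 6.07, 8.397, 7.39, 8.22 and 4.97 CPM in CTRL OCT20. Every SEC pool lay below every control pool, the nearest pair being SEC replicate 1 and control replicate 5. It fell (-0.80 ± 0.13, adjusted p = 9.41e-05) to 0.573 times the CTRL level, and it passed in all 30 alternative fits. Its JUN20 levels were 6.52, 7.53, 6.800, 6.42 and 5.65 CPM in SEC and 7.62, 7.77, 6.95, 7.36 and 6.54 CPM in CTRL, with SEC replicates 2 and 3 inside the control range and a change of -0.14 ± 0.12, adjusted p = 0.496.

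Cyclin A2, ccna2 (ENSDARG00000011094), which pairs with Cdk kinases in S phase and before mitosis, had 13.4, 10.8, 11.1, 10.96 and 10.2 CPM in SEC OCT20, against 12.7, 23.8, 20.5, 21.5 and 11.8 CPM in CTRL OCT20. SEC replicate 1 was high within its group and overlapped control replicates 1 and 5, which lay just above the other SEC pools. The gene fell in OCT20 (-0.67 ± 0.17, adjusted p = 0.00843). In JUN20 it had 11.5, 19.3, 15.8, 16.5 and 13.1 CPM in SEC and 18.8, 18.4, 19.7, 18.2 and 20.2 CPM in CTRL, where only SEC replicate 2 reached the control range. That change was -0.32 ± 0.16, adjusted p = 0.234.

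Cyclin B1, ccnb1 (ENSDARG00000051923), the main partner of Cdk1 at mitotic entry, had 9.93, 8.35, 7.82, 7.14 and 7.14 CPM in SEC OCT20, against 8.87, 18.00, 12.4, 17.1 and 8.19 CPM in CTRL OCT20. Control replicates 1 and 5 lay within the SEC range, and the other 3 controls lay above it. The change was -0.67 ± 0.19, adjusted p = 0.0187 in OCT20 and -0.29 ± 0.18, adjusted p = 0.351 in JUN20. The OCT20 call was made in 24 of 30 alternative fits. Means in JUN20 were 12.00 ± 2.36 CPM in SEC and 14.6 ± 1.16 CPM in CTRL. The kinase gene cdk1 (ENSDARG00000087554) had 10.3, 9.25, 8.82, 8.201 and 9.798 CPM in SEC OCT20, against 9.71, 19.2, 16.00, 19.1 and 8.29 CPM in CTRL OCT20, with the same 2 controls among the SEC pools. Its change was -0.63 ± 0.19, adjusted p = 0.027 in OCT20, a call made in 22 of 30 alternative fits, and -0.25 ± 0.18, adjusted p = 0.432 in JUN20. The fifth gene, ccnb2, had the largest fitted OCT20 change of all members, -0.84 ± 0.24, adjusted p = 0.017, with the lowest count in a library of any member. Its call was made in 25 of 30 alternative fits.

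Of the mitotic kinases and the chromosomal passenger complex, which corrects faulty spindle attachments, 4 of 5 genes fell in OCT20 and none in JUN20. The genes that fell were aurka, aurkb, plk1 and cdca8. The fifth was birc5a, the passenger subunit called survivin in mammals, with a change of -0.36 ± 0.19, adjusted p = 0.207. The medians were -0.64 in OCT20 and -0.21 in JUN20.

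The kinase gene plk1 (ENSDARG00000058471), which acts at centrosomes, kinetochores and the cleavage plane, had 17.9, 14.05, 14.7, 14.2 and 13.1 CPM in SEC OCT20, against 17.1, 31.2, 22.2, 29.4 and 15.9 CPM in CTRL OCT20. SEC replicate 1 lay above control replicates 1 and 5, and the remaining SEC pools lay below every control. It fell in OCT20 (-0.64 ± 0.16, adjusted p = 0.00761). In JUN20, SEC pools had 17.3, 26.1, 20.98, 20.5 and 19.4 CPM and CTRL pools 25.95, 23.8, 24.5, 21.2 and 25.1 CPM, and SEC replicate 2 was the highest of the 10. The change there was -0.21 ± 0.15, adjusted p = 0.434.

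The spindle pole kinase gene aurka (ENSDARG00000012485) had 3.83, 2.58, 3.09, 2.94 and 2.99 CPM in SEC OCT20, against 3.81, 6.08, 5.49, 6.34 and 3.27 CPM in CTRL OCT20. The groups touched only where SEC replicate 1 lay above control replicates 1 and 5. It fell in OCT20 (-0.68 ± 0.16, adjusted p = 0.00422), and its JUN20 change was -0.25 ± 0.15, adjusted p = 0.318. The gene cdca8 (ENSDARG00000043137), whose mammalian product is borealin, had 3.45, 2.305, 2.86, 2.54 and 2.37 CPM in SEC OCT20, against 3.19, 6.15, 5.59, 5.16 and 3.17 CPM in CTRL OCT20, with the same SEC pool above the same controls. It fell in OCT20 (-0.77 ± 0.18, adjusted p = 0.00503), while its means in JUN20 were 4.73 ± 0.742 CPM in SEC and 5.01 ± 0.814 CPM in CTRL (-0.09 ± 0.17, adjusted p = 0.801). The catalytic subunit of the complex, aurkb, fell in OCT20 (-0.59 ± 0.16, adjusted p = 0.0124) and had a JUN20 change of -0.21 ± 0.15, adjusted p = 0.412.

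The 3 genes that fell in JUN20 in the main fit were all kinetochore and spindle checkpoint genes. With the 2 JUN20 groups fitted alone, 9 members fell, where 7.21% of all genes did, and they were not confined to this role. Besides bub1bb of this role, that fit added mki67, top2a and esco2 of chromosome structure. It also added racgap1 (adjusted p = 0.0486) and ect2 (adjusted p = 0.0499) of spindle and cytokinesis. The counts that follow are those of the main fit. In OCT20, 8 of 8 fell with a median of -0.64, and in JUN20, 3 of 8 fell with a median of -0.27. Every SEC pool lay below every control pool for bub1, bub1bb and ttk in JUN20, and for bub1, ttk, nuf2 and cenpf in OCT20. Over all members this held for 4 of 38 in JUN20 and 8 of 38 in OCT20, where it held for 6.04% and 4.70% of all genes tested.

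The checkpoint kinase gene bub1 (ENSDARG00000077029) had 11.4, 16.2, 14.1, 13.3 and 12.3 CPM in SEC JUN20, against 17.3, 18.3, 19.99, 19.5 and 20.1 CPM in CTRL JUN20. Every SEC pool lay below every control pool. It fell in JUN20 (-0.50 ± 0.13, adjusted p = 0.0151) to 0.709 times the CTRL level. In OCT20 it had 10.9, 9.19, 10.1, 9.32 and 9.002 CPM in SEC, against 12.5, 20.98, 15.1, 19.2 and 11.6 CPM in CTRL, again without overlap. It fell there too (-0.70 ± 0.13, adjusted p = 0.000763). The JUN20 call held in 27 of 27 alternative fits and the OCT20 call in 30 of 30.

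The gene ttk (ENSDARG00000041361), whose kinase is known as Mps1 and starts checkpoint signalling at free kinetochores, fell in both campaigns. Its JUN20 levels were 12.6, 15.6, 15.2, 14.8 and 14.6 CPM in SEC, against 17.7, 19.7, 20.4, 19.8 and 17.7 CPM in CTRL, with no overlap. It fell (-0.39 ± 0.10, adjusted p = 0.0134). In OCT20 it had 12.3, 11.6, 10.2, 12.3 and 11.2 CPM in SEC, against 13.4, 19.9, 17.8, 18.2 and 12.5 CPM in CTRL, and control replicate 5 was just above the highest SEC pools. It fell there as well (-0.50 ± 0.10, adjusted p = 0.00138).

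Nuf2, encoded by nuf2 (ENSDARG00000034624), is a rod-forming subunit of the Ndc80 complex, which binds spindle microtubules. In JUN20 the gene had 5.19, 8.09, 7.34, 6.503 and 6.92 CPM in SEC, against 8.37, 9.36, 8.73, 7.73 and 9.62 CPM in CTRL. SEC replicate 2 lay above control replicate 4, and SEC replicate 1 was the lowest. The fall passed narrowly (-0.36 ± 0.12, adjusted p = 0.0472), in 11 of 27 alternative fits, with adjusted p from 0.0219 to 0.114. In OCT20 it had 5.92, 4.92, 4.805, 4.69 and 5.75 CPM in SEC, against 7.23, 9.36, 8.898, 10.2 and 6.79 CPM in CTRL, without overlap. That fall was -0.70 ± 0.12, adjusted p = 0.000249, and it held in 30 of 30 alternative fits. Its partner ndc80 fell in OCT20 (-0.69 ± 0.17, adjusted p = 0.00583) and had a JUN20 change of -0.13 ± 0.16, adjusted p = 0.669.

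The kinetochore gene cenpf (ENSDARG00000055133) had 27.9, 29.9, 27.6, 30.8 and 28.6 CPM in SEC OCT20, against 33.5, 49.2, 53.7, 38.4 and 32.02 CPM in CTRL OCT20. The SEC values were tightly grouped and lay below every control, of which replicates 1 and 5 were nearest. It fell in OCT20 (-0.51 ± 0.12, adjusted p = 0.00604). In JUN20 its means were 43.8 ± 6.36 CPM in SEC and 47.9 ± 3.48 CPM in CTRL (SD, n = 5 each), with a change of -0.13 ± 0.12, adjusted p = 0.552. The remaining genes of the group are the checkpoint proteins bub1bb and mad2l1 and the checkpoint's target cdc20, which activates the anaphase-promoting complex. Their OCT20 changes were -0.54 ± 0.15, adjusted p = 0.0175 for bub1bb, -0.60 ± 0.18, adjusted p = 0.0285 for mad2l1 and -0.69 ± 0.17, adjusted p = 0.0071 for cdc20. These calls were made in 26, 22 and 29 of 30 alternative fits. In JUN20 these 3 genes had changes between -0.27 and -0.24, none past the threshold, though bub1bb had no overlap between its groups.

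The 3 chromosome structure genes, mki67, top2a and esco2, all fell in OCT20, with a median of -0.69. None passed in JUN20 in the main fit, where the median was -0.33. With the 2 JUN20 groups fitted alone, all 3 fell in JUN20, where 7.21% of all genes did. Their adjusted p in that fit was 0.0225, 0.00424 and 0.0215, in the same order. The values below are those of the main fit. The proliferation marker mki67 (ENSDARG00000091150), whose protein coats mitotic chromosomes, had 89.98, 76.9, 86.4, 82.7 and 76.97 CPM in SEC OCT20, against 93.2, 155, 132, 147 and 82.1 CPM in CTRL OCT20. Control replicate 5 lay within the SEC range, replicate 1 just above it and the other controls far above it. SEC was below CTRL in OCT20 (-0.56 ± 0.13, adjusted p = 0.00602). In JUN20, mki67 had 104, 136, 124, 118 and 106 CPM in SEC and 144, 146, 136, 131 and 142 CPM in CTRL, with only SEC replicate 2 inside the control range, and the change was -0.25 ± 0.13, adjusted p = 0.26.

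Topoisomerase II alpha, encoded by top2a (ENSDARG00000024488), untangles sister chromatids. Its gene had 46.8, 39.96, 42.7, 44.8 and 36.9 CPM in SEC OCT20, against 50.4, 86.3, 76.95, 81.1 and 45.6 CPM in CTRL OCT20. SEC replicate 1 lay between control replicates 5 and 1, so the groups just overlapped. The OCT20 fall was past the threshold (-0.69 ± 0.14, adjusted p = 0.00187). In JUN20 it had 50.9, 67.5, 63.5, 60.3 and 55.7 CPM in SEC, against 78.3, 80.1, 73.6, 70.2 and 72.3 CPM in CTRL, and here every SEC pool lay below every control, with a change of -0.33 ± 0.14, adjusted p = 0.143. The cohesin acetyltransferase gene esco2 (ENSDARG00000014685) had 6.21, 5.54, 6.47, 5.63 and 5.57 CPM in SEC OCT20, against 6.86, 13.5, 10.97, 11.9 and 6.64 CPM in CTRL OCT20, with no overlap although control replicates 1 and 5 were close. The gene was lower in SEC OCT20 (-0.75 ± 0.16, adjusted p = 0.00213), and its JUN20 change was -0.33 ± 0.15, adjusted p = 0.184.

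In the main fit, spindle and cytokinesis genes fell in OCT20 in 8 of 8 cases, with a median of -0.66. In JUN20 they fell in 0 of 8, with a median of -0.20. The gene tpx2 (ENSDARG00000078654), whose protein activates Aurora A on spindle microtubules, had 19.97, 15.9, 19.3, 18.2 and 16.5 CPM in SEC OCT20, against 23.6, 35.5, 29.5, 36.8 and 20.2 CPM in CTRL OCT20. SEC replicate 1 came nearest to control replicate 5 without passing it. SEC was below CTRL in OCT20 (-0.69 ± 0.14, adjusted p = 0.00139). In JUN20 tpx2 had 21.7, 32.7, 28.2, 27.02 and 23.2 CPM in SEC and 32.2, 33.02, 30.5, 31.3 and 31.99 CPM in CTRL, with SEC replicate 2 alone in the control range and a change of -0.26 ± 0.13, adjusted p = 0.238.

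Anillin, encoded by anln (ENSDARG00000060917), is a scaffold of the cleavage furrow. Its gene had 15.6, 14.1, 14.3, 12.98 and 11.99 CPM in SEC OCT20, against 17.1, 26.5, 24.97, 27.2 and 14.7 CPM in CTRL OCT20, and SEC replicate 1 was the one pool to overlap a control, replicate 5. The OCT20 fall was past the threshold (-0.68 ± 0.14, adjusted p = 0.00187), with a JUN20 change of -0.21 ± 0.13, adjusted p = 0.367. The kinesin gene kif20a (ENSDARG00000044491), needed at the central spindle, had 9.26, 7.32, 7.74, 7.54 and 6.901 CPM in SEC OCT20, against 9.09, 17.3, 12.6, 16.4 and 8.44 CPM in CTRL OCT20. SEC replicate 1 lay above control replicates 1 and 5. The gene was lower in SEC OCT20 (-0.71 ± 0.16, adjusted p = 0.00281) in 30 of 30 alternative fits, and its JUN20 change was -0.19 ± 0.15, adjusted p = 0.455.

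The microtubule bundling gene prc1b (ENSDARG00000005993) differed most between campaigns in its fitted values. It had 3.74, 3.74, 3.53, 3.99 and 3.12 CPM in SEC OCT20, against 4.49, 8.16, 7.03, 6.88 and 3.88 CPM in CTRL OCT20. SEC replicate 4 was above control replicate 5 and the other SEC pools were below every control. SEC was below CTRL in OCT20 (-0.74 ± 0.17, adjusted p = 0.00373). Its JUN20 levels were 5.55, 7.799, 6.67, 5.98 and 5.02 CPM in SEC and 6.06, 6.799, 5.52, 4.97 and 6.21 CPM in CTRL, with SEC replicate 2 the highest of the 10, overlapping groups and a change of 0.06 ± 0.16, adjusted p = 0.854. The remaining 4 genes are the spindle motor gene kif11, the centralspindlin genes kif23 and racgap1 and the guanine nucleotide exchange factor gene ect2. They fell in OCT20 with changes between -0.65 and -0.45. Their JUN20 changes were between -0.28 and -0.10, none past the threshold in the main fit. Of 30 alternative fits, the OCT20 call was made in 21 for kif23 and in 22 for ect2, with adjusted p up to 0.267 and 0.28. For kif11 and racgap1 it was made in 29 each.

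**Figure D2:**
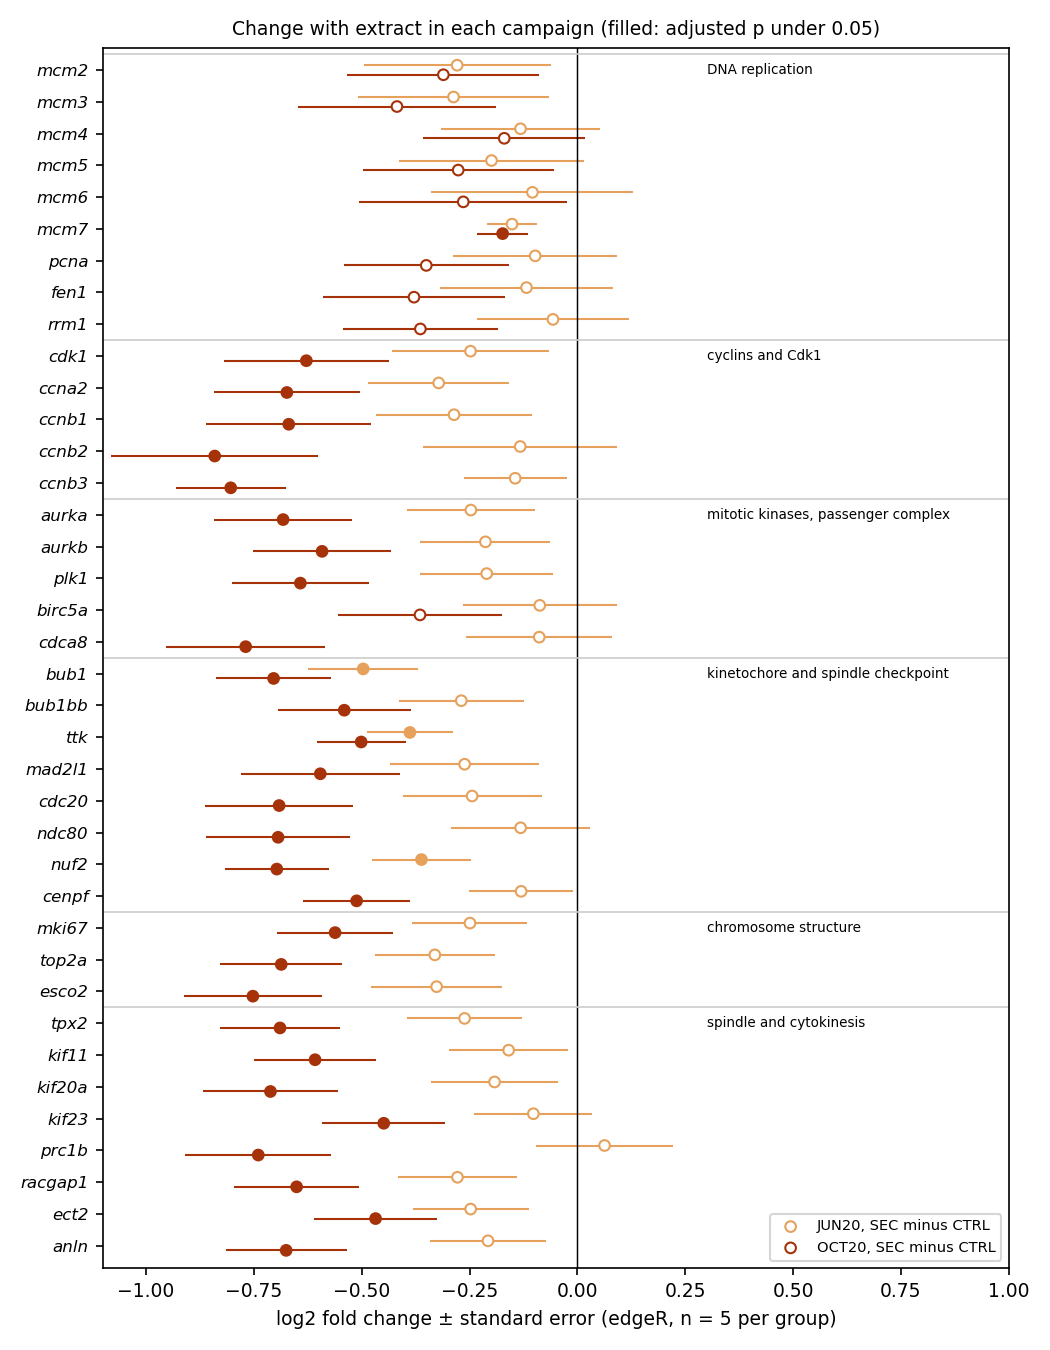
Log2 fold change of SEC over CTRL (horizontal axis, ± standard error) for each of the 38 members in JUN20 and OCT20, by role, filled where the adjusted p was under 0.05. In OCT20 every mitosis gene except birc5a is filled, and of the replication genes mcm7 alone. In JUN20 the 3 filled points are bub1, ttk and nuf2.

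Whether the extract's effect itself differed between campaigns was tested as the OCT20 effect minus the JUN20 effect. No member passed by edgeR, where 0.247% of all genes were lower, 0.787% higher and 1.03% either, and 10 of 38 were lower at an unadjusted p under 0.05, where 5.68% of all genes were. DESeq2 called 2 members lower, where it called 0.976% of all genes lower. Without CTRL OCT20 replicate 5, edgeR called 2 members, where 0.396% of all genes were lower. All 38 fitted differences were negative, with a median of -0.35 against -0.01 over all genes. The smallest p-values belonged to ccnb3 (-0.66 ± 0.17, adjusted p = 0.0691), prc1b (-0.80 ± 0.23, adjusted p = 0.104) and cdca8 (-0.68 ± 0.25, adjusted p = 0.234). The larger number of OCT20 calls is therefore not shown to be a larger effect than in JUN20.

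The levels also shifted between campaigns. Group means of the summed members were 658 ± 58.04 CPM in SEC OCT20, 931 ± 131 CPM in SEC JUN20, 921 ± 268 CPM in CTRL OCT20 and 1070 ± 44.2 CPM in CTRL JUN20 (SD, n = 5 each). From high to low the order was CTRL JUN20, SEC JUN20, CTRL OCT20 and SEC OCT20, and each neighbouring pair in that order overlapped in single libraries. SEC OCT20 set against SEC JUN20 had 22 of 38 members lower and none higher, where 5.58% of all genes were lower and 6.41% higher, and all 38 were lower at an unadjusted p under 0.05, where 14.0% of all genes were. This comparison shares its SEC OCT20 libraries with the OCT20 comparison. Every SEC OCT20 pool lay below every SEC JUN20 pool for 27 of 38 members, where this held for 5.45% of all genes. DESeq2 called 29 members lower, where it called 7.30% of all genes lower. The median change was -0.52.

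The members with the smallest p-values in that comparison were ccnb3, aurka, cdca8, cenpf, kif20a, prc1b, tpx2 and anln. For cdca8 the 5 SEC OCT20 pools lay between 2.30 and 3.45 CPM, below the SEC JUN20 pools, which began at 3.99 CPM (-0.80 ± 0.18, adjusted p = 0.00612). For prc1b the change was -0.78 ± 0.17, adjusted p = 0.00469, for ccnb3 -0.72 ± 0.13, adjusted p = 0.000985, for kif20a -0.73 ± 0.15, adjusted p = 0.00444 and for aurka -0.69 ± 0.16, adjusted p = 0.00697. For cenpf it was -0.60 ± 0.12, adjusted p = 0.004, for anln -0.63 ± 0.14, adjusted p = 0.00662 and for tpx2 -0.56 ± 0.14, adjusted p = 0.0122. The replication genes had a median of -0.52 as well, but a single one, mcm7, passed (-0.22 ± 0.06, adjusted p = 0.0198). The count of 22 was sensitive to single pools. It fell to 8 without SEC OCT20 replicate 5, to 9 without SEC JUN20 replicate 2 and to 11 without SEC JUN20 replicate 3. It fell to 13 without SEC OCT20 replicate 2 and to 14 without SEC OCT20 replicate 4. The share of all genes lower fell as well, in the same order to 3.23%, 3.42%, 3.48%, 4.68% and 3.69%.

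CTRL OCT20 set against CTRL JUN20 had no member past the threshold by edgeR, where 2.97% of all genes were lower, 2.83% higher and 5.80% either. DESeq2 called 1 member lower, where it called 4.2% of all genes lower. At an unadjusted p under 0.05, 5 of 38 were lower, where 11.0% of all genes were. Without CTRL OCT20 replicate 2, 7 members were called lower, where 4.85% of all genes were. No member separated the 2 groups without overlap, which 3.14% of all genes did. The median was -0.18 over all members and -0.44 over the replication genes. Over all members it was -0.08 without CTRL OCT20 replicate 1, -0.29 without replicate 2 and -0.04 without replicate 5. The smallest p-values were those of mcm7 (-0.19 ± 0.06, adjusted p = 0.0521), mcm5 (-0.56 ± 0.22, adjusted p = 0.135) and mcm4 (-0.48 ± 0.19, adjusted p = 0.135). The helicase gene mcm4 (ENSDARG00000040041) had 26.8, 55.98, 39.3, 53.02 and 25.2 CPM in CTRL OCT20, against 50.02, 62.8, 56.8, 52.7 and 55.9 CPM in CTRL JUN20. Replicates 2 and 4 of CTRL OCT20 lay within the CTRL JUN20 range, replicate 3 below it and replicates 1 and 5 lowest. Its SEC pools had 40.7, 38.9, 37.9, 26.8 and 33.3 CPM in SEC OCT20, against 46.7, 61.5, 54.3, 48.1 and 43.5 CPM in SEC JUN20.

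**Figure D3:**
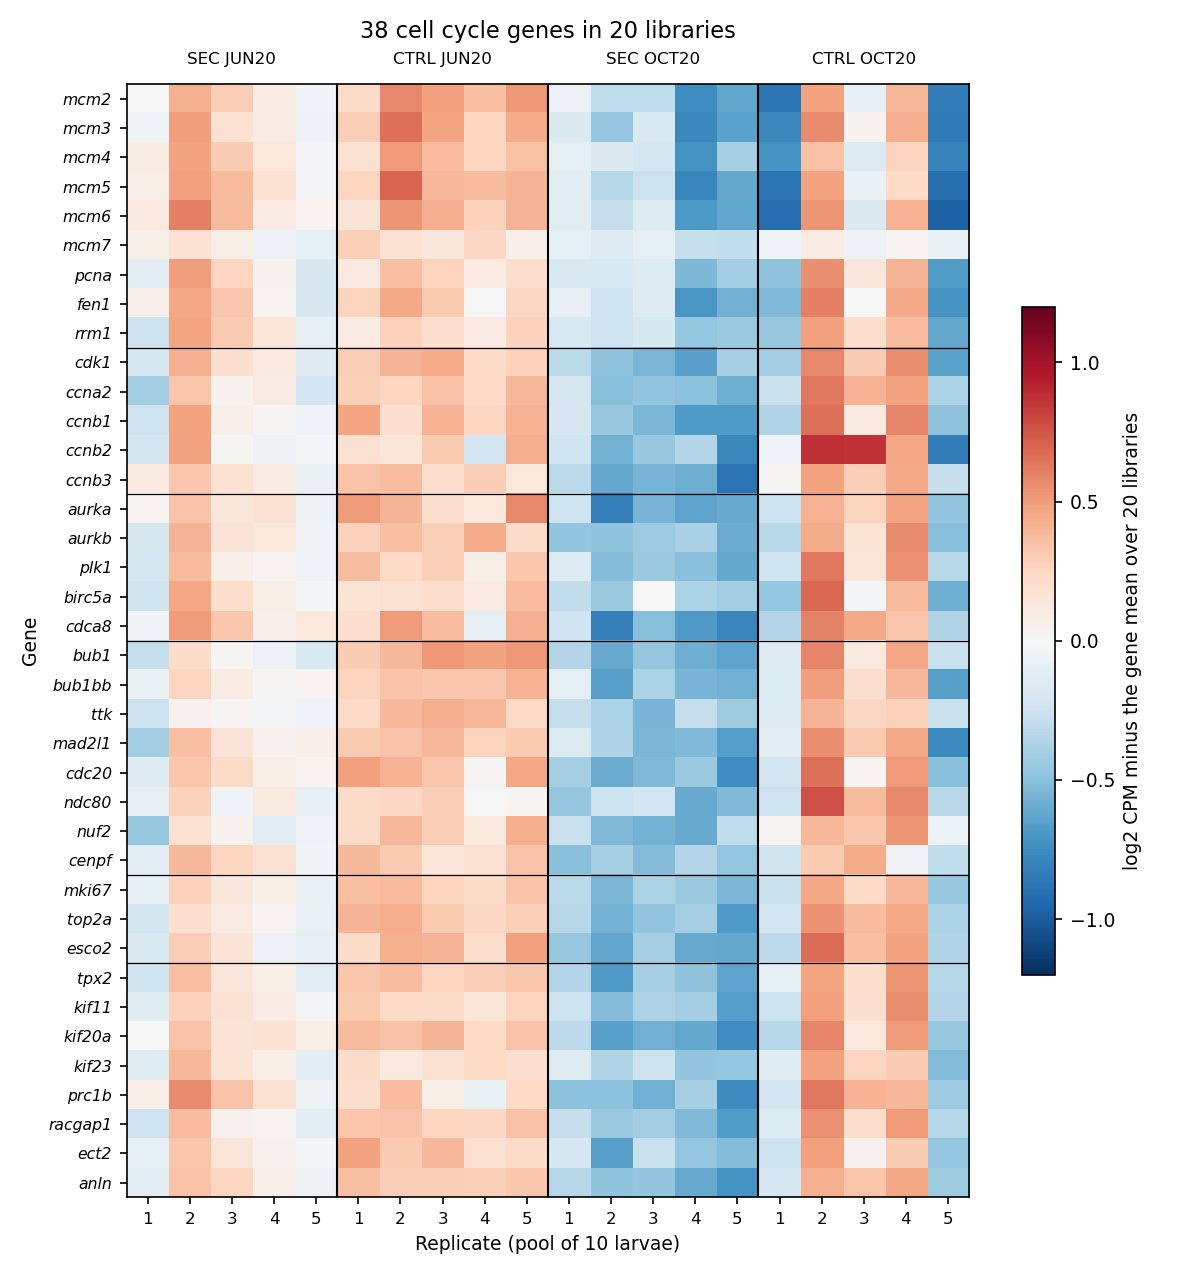
Level of each of the 38 members in each of the 20 libraries, as log2 CPM minus the gene's mean over the libraries, by group and replicate, with black lines between roles. The colours run down whole columns, CTRL OCT20 replicates 1 and 5 are mostly blue like the SEC OCT20 columns, and mcm7 is pale throughout.

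The members moved together from pool to pool, so counts of members with the same sign are not counts of separate observations. Over the 20 libraries, after group means were removed, the median Pearson correlation between pairs of members was 0.871. It was 0.981 between MCM genes, 0.871 between mitosis genes and 0.85 between an MCM gene and a mitosis gene. These values describe 20 libraries, within each of which all members share the same depth and scaling factor, and among which CTRL OCT20 had the widest spread. The gene least like the others was mcm7, with a median correlation of 0.46, followed by cenpf with 0.65, while mki67 had the highest, 0.92.

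The OCT20 libraries also divided in another way, which cut across SEC and CTRL. A set of 3 genes outside the members was low in 5 of the 10 OCT20 libraries, with at most 29, 0 and 10 counts, and had at least 106, 40 and 148 counts in the other 5. The next most frequent division of this kind was shown by 1 gene. The low side held SEC replicates 4 and 5 and CTRL replicates 1, 3 and 5, and the high side held SEC replicates 1, 2 and 3 and CTRL replicates 2 and 4. A first principal component was taken of all genes tested, members included, over the 20 libraries after group means were removed. It held 23.0% of the variance that remained within groups. It was positive for the 5 libraries of the high side and negative for the 5 of the low side. The JUN20 libraries ran from -6.78 to 9.41 on it, and SEC OCT20 replicate 2 of the high side had 9.48. The labels name no such division, and what it stands for cannot be told from them.

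The levels of the members went with the side, above all in the controls. Summed over the 38 members, the SEC pools of the low side had 598 to 607 CPM and the CTRL pools of the low side 614 to 972 CPM. On the high side, SEC pools had 659 to 735 CPM and CTRL pools 1129 to 1214 CPM. Summed replication genes had 248 and 267 CPM in the SEC pools of the low side, against 237 to 371 CPM in its CTRL pools. On the high side they had 313 to 336 CPM in SEC and 463 and 505 CPM in CTRL. Summed mitosis genes had 331 and 359 CPM in the SEC pools of the low side, against 377 to 601 CPM in its CTRL pools. On the high side they had 346 to 399 CPM in SEC and 666 and 709 CPM in CTRL. So SEC and CTRL pools overlapped in the summed replication genes of the low side, and in the summed mitosis genes they overlapped on neither side. The sums weigh highly expressed genes most. Taken singly, mitosis genes such as mad2l1, bub1bb and cdk1 overlapped on the low side, whereas others such as ccnb3 and nuf2 did not.

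The division was found in these same counts, after the data were seen. Its high side held CTRL OCT20 replicates 2 and 4, whose member sums were the highest of that group. The size of the fall on each side therefore depends on which controls that side held. To fit a side, the OCT20 libraries of the other side were left out and the JUN20 libraries were kept. The standard errors and p-values of a side therefore draw on the JUN20 pools too. With the high side fitted in this way, 37 of 38 members fell, where 8.60% of all genes did, with a median of -0.90. The exception was mcm7 (-0.17 ± 0.08, adjusted p = 0.132). The largest changes were those of ccnb2 (-1.08 ± 0.22, adjusted p = 0.00162), cdc20 (-1.08 ± 0.14, adjusted p = 1.57e-05) and esco2 (-1.06 ± 0.13, adjusted p = 9.79e-06), and the replication gene mcm3 fell too (-0.76 ± 0.16, adjusted p = 0.00498). With the low side fitted in the same way, 4 of 38 fell, where 4.76% of all genes did, with a median of -0.40. These were ccnb3 (-0.75 ± 0.16, adjusted p = 0.00317), nuf2 (-0.52 ± 0.16, adjusted p = 0.0375), bub1 (-0.50 ± 0.13, adjusted p = 0.0165) and kif20a (-0.46 ± 0.14, adjusted p = 0.0315). With the side as an added term over all 20 libraries, 32 members fell, where 11.6% of all genes did, with a median of -0.67.

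The effect on the high side minus that on the low side, a test added after the data were seen, had no member past the threshold by edgeR. None of all 23121 genes passed either. At an unadjusted p under 0.05, 15 of 38 were lower, where 7.02% of all genes were, and 37 of 38 differences were negative, with a median of -0.48. The smallest p-values were those of cdc20 (-0.71 ± 0.22, adjusted p = 0.186), kif20a (-0.59 ± 0.19, adjusted p = 0.186) and aurkb (-0.70 ± 0.23, adjusted p = 0.201). With 2 or 3 pools in a cell of this comparison, no gene passed, so the lack of calls is not particular to the members.

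**Figure D4:**
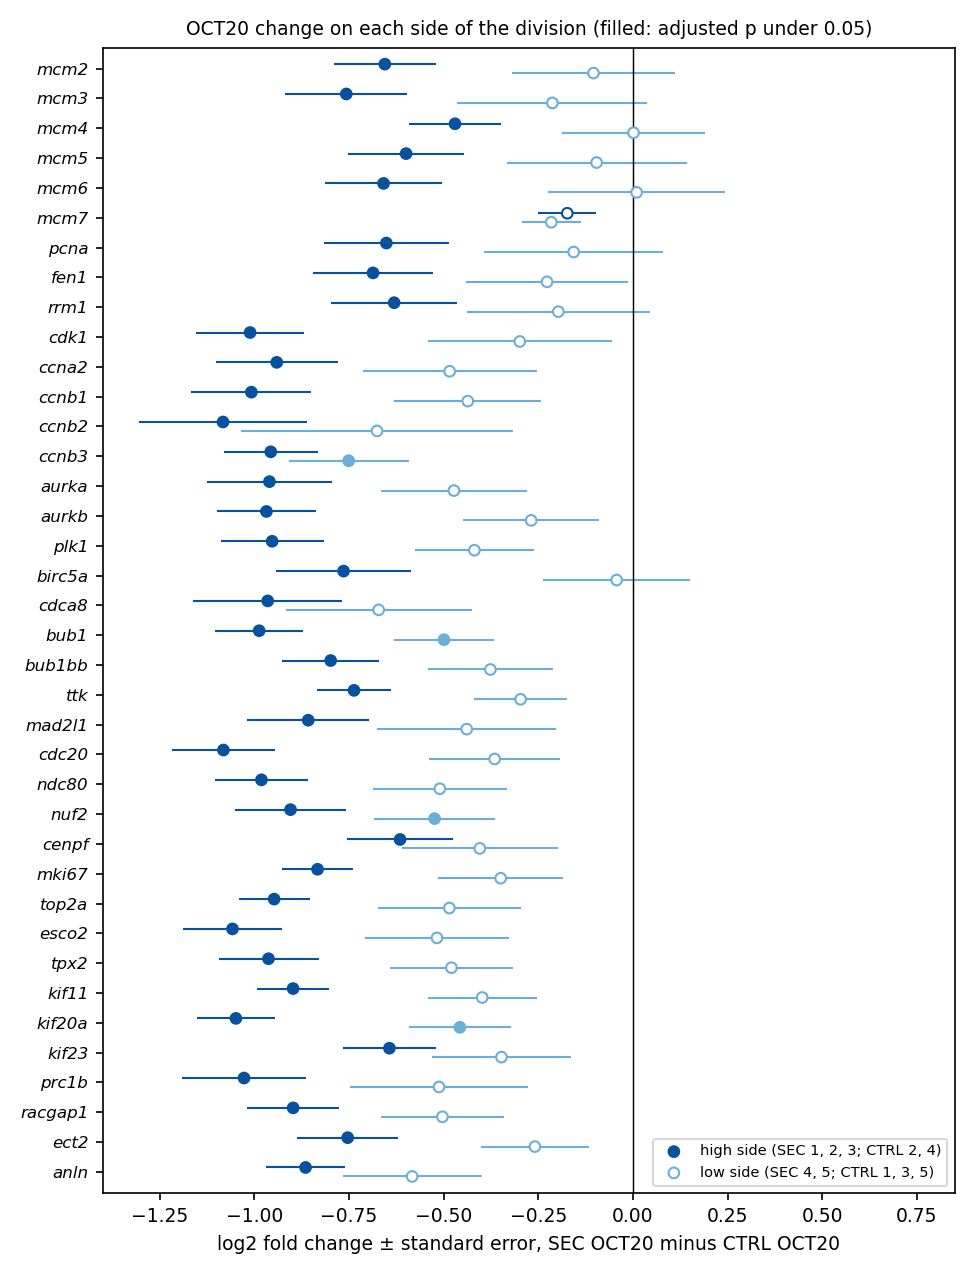
Log2 fold change of SEC OCT20 over CTRL OCT20 (± standard error) for each member, filled where the adjusted p was under 0.05. The OCT20 libraries were those of the high side (3 SEC and 2 CTRL pools) or of the low side (2 SEC and 3 CTRL pools). The JUN20 libraries were kept in both fits. High-side points lie left of low-side points for all members but mcm7, and mcm4, mcm6 and birc5a lie nearest to 0 on the low side.

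Other genes of the cell cycle were drawn from 10 lists, none of whose genes is a member. Of all genes tested, 8.49% fell and 9.54% rose in OCT20, and 4.90% fell and 5.92% rose in JUN20. Each list count below is to be read beside these shares. Of the spindle motor and cytokinesis list, 17 of 23 tested genes fell in OCT20 and 0 in JUN20, with medians of -0.55 and -0.22. They included the kinesin genes kif2c (-0.64 ± 0.13, adjusted p = 0.00154) and kifc1 (-0.61 ± 0.11, adjusted p = 0.000526) and the spindle gene tacc3 (-0.57 ± 0.11, adjusted p = 0.00123). Of the cohesin and condensin list, 13 of 19 fell in OCT20, among them sgo1, the guardian of centromeric cohesion (-0.72 ± 0.13, adjusted p = 0.000463), and the cohesin subunits stag1a (-0.25 ± 0.04, adjusted p = 3.11e-05) and rad21a (-0.18 ± 0.04, adjusted p = 0.000783). In JUN20 its cohesin subunit smc3 fell (-0.13 ± 0.04, adjusted p = 0.0444) and the cohesin release gene wapla rose (0.19 ± 0.05, adjusted p = 0.00896). Of the kinetochore list, 9 of 23 fell in OCT20 and 0 in JUN20, including knl1 (-0.57 ± 0.14, adjusted p = 0.00759), cenpe (-0.54 ± 0.14, adjusted p = 0.0113) and cenpt (-0.59 ± 0.15, adjusted p = 0.00573).

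In OCT20, 3 of 21 genes on the origin licensing list, not all of which act at origins, fell, where 8.49% of all genes tested did. The list median was -0.31. They were gins4 (-0.49 ± 0.16, adjusted p = 0.0383), ticrr (-0.46 ± 0.15, adjusted p = 0.0329) and timeless (-0.13 ± 0.04, adjusted p = 0.0383). Of 31 replication fork and polymerase genes, 9 fell, with a median of -0.38, among them the clamp loader genes rfc2 (-0.45 ± 0.10, adjusted p = 0.0021) and rfc1 (-0.31 ± 0.08, adjusted p = 0.00843) and the nuclease gene dna2 (-0.58 ± 0.14, adjusted p = 0.00681). No gene of these 2 lists passed in JUN20, where their medians were -0.16 and -0.12.

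Of 9 tested nucleotide supply genes, 2 fell and 1 rose in OCT20, and 0 fell and 1 rose in JUN20. The fitted change was negative for 8 of 9 in OCT20 and 7 of 9 in JUN20, with medians of -0.50 and -0.18. In OCT20 the thymidine kinase gene tk1 (-0.64 ± 0.17, adjusted p = 0.0125) and the thymidylate kinase gene dtymk (-0.52 ± 0.16, adjusted p = 0.0288) fell. The gene rrm2b (ENSDARG00000033367), the small ribonucleotide reductase subunit that p53 induces in mammals, rose. It had 21.2, 24.9, 24.3, 24.3 and 25.5 CPM in SEC OCT20, against 17.4, 16.9, 16.6, 16.3 and 14.02 CPM in CTRL OCT20, with every SEC pool above every control (0.57 ± 0.08, adjusted p = 9.69e-06). In JUN20 it had 18.6, 19.7, 18.8, 22.3 and 21.8 CPM in SEC and 13.4, 16.9, 16.2, 14.2 and 15.9 CPM in CTRL, again without overlap (0.40 ± 0.07, adjusted p = 0.00111). The symbol rrm2, the small subunit of cycling cells, is carried by 2 genes of the table whose reads may be split, and neither passed in either campaign.

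Of 18 tested genes of the G1 and S list, 4 fell and 2 rose in OCT20, and 1 fell and 1 rose in JUN20. The Cdk inhibitor gene cdkn1ba rose in OCT20 (0.20 ± 0.05, adjusted p = 0.00383) and in JUN20 (0.20 ± 0.05, adjusted p = 0.00532). The Cdk inhibitor gene cdkn1a (ENSDARG00000076554), a p53 target in mammals, had 4.79, 3.83, 3.99, 2.33 and 2.81 CPM in SEC OCT20, against 1.02, 3.46, 2.08, 1.75 and 1.698 CPM in CTRL OCT20. Every SEC pool lay above control replicates 1, 3, 4 and 5, and SEC replicates 4 and 5 lay below control replicate 2. It rose in OCT20 (0.85 ± 0.24, adjusted p = 0.0192), had a JUN20 change of 0.02 ± 0.20, adjusted p = 0.969, and was lower in CTRL OCT20 than in CTRL JUN20 (-1.71 ± 0.23, adjusted p = 0.000245). The S phase cyclin gene ccne2 (-0.66 ± 0.15, adjusted p = 0.00373), cdk6 (-0.34 ± 0.08, adjusted p = 0.00305) and the Cdk1-activating phosphatase gene cdc25b (-0.44 ± 0.10, adjusted p = 0.00302) fell in OCT20, and cdkn1d fell in JUN20 (-0.72 ± 0.19, adjusted p = 0.0224). The growth-factor-responsive cyclin gene ccnd1 had a change of -0.07 ± 0.06, adjusted p = 0.539, in OCT20 and of -0.06 ± 0.06, adjusted p = 0.595, in JUN20.

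Of 23 genes on the list of E2F, MuvB and FoxM1 regulators, not all of which are activators, 8 fell in OCT20 and 1 in JUN20. The transcription factor genes of mitotic transcripts, foxm1 (-0.57 ± 0.18, adjusted p = 0.0296) and mybl2b (-0.56 ± 0.17, adjusted p = 0.0244), fell in OCT20, as did tfdp1a (-0.31 ± 0.08, adjusted p = 0.0065), lin52 (-0.36 ± 0.10, adjusted p = 0.0143) and e2f4 (-0.27 ± 0.08, adjusted p = 0.0233). The gene e2f1 fell in JUN20 (-0.44 ± 0.13, adjusted p = 0.0363), had a change of -0.26 ± 0.15, adjusted p = 0.257, in OCT20, and was lower in CTRL OCT20 than in CTRL JUN20 (-0.66 ± 0.14, adjusted p = 0.00742). Of 19 tested genes of the anaphase-promoting complex and mitotic exit, 5 fell in OCT20, including the Greatwall kinase gene mastl (-0.45 ± 0.09, adjusted p = 0.000857). Of 8 tested genes on the histone chaperone and variant list, 3 fell in OCT20. They were the histone gene h3f3a (-0.26 ± 0.08, adjusted p = 0.0354) and 2 genes of other chromatin proteins, hmgb2a (-0.43 ± 0.09, adjusted p = 0.00259) and hmgb2b (-0.44 ± 0.11, adjusted p = 0.00554). Among the E2F list, rbl1 (-0.25 ± 0.06, adjusted p = 0.0203) and rbl2 (-0.14 ± 0.04, adjusted p = 0.0444), which encode retinoblastoma-related proteins, were also lower in CTRL OCT20 than in CTRL JUN20.

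**Figure D5:**
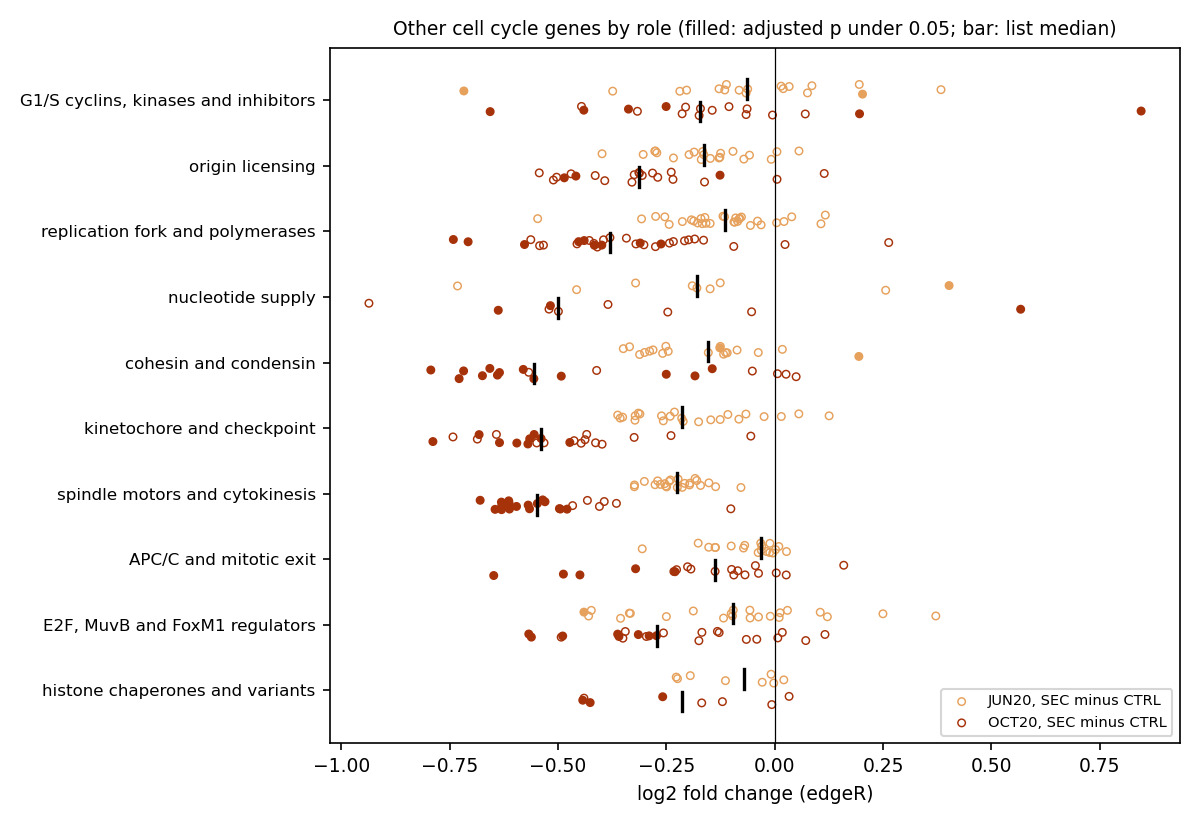
Log2 fold change of SEC over CTRL for the tested genes of 10 other cell cycle lists in JUN20 and OCT20, filled where the adjusted p was under 0.05, with a bar at each list's median. Medians of the cohesin and condensin, kinetochore, and spindle lists lie between -0.56 and -0.54 in OCT20, and rrm2b and cdkn1a are the filled points farthest to the right.

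Genes listed as markers of cell types that hold dividing cells, or their immediate progeny, were in part lower in SEC larvae. Whether each is confined to such cells in these larvae was not tested. Of the 4 tested basal epidermis markers, 3 fell in OCT20 and 1 in JUN20, where 8.49% and 4.90% of all genes tested fell. All 4 had negative changes in both. Their summed level was 1814 to 2680 CPM in SEC OCT20, 2953 to 3751 CPM in CTRL OCT20, 2386 to 2675 CPM in SEC JUN20 and 3089 to 4167 CPM in CTRL JUN20. SEC and CTRL did not overlap in either campaign. Most of each sum was krt5, at 1543 to 2338 CPM in SEC OCT20 and 2647 to 3350 CPM in CTRL OCT20. Taken singly, 1 of the 4 markers had every SEC pool below every control in OCT20, and 2 had in JUN20. The basal keratin gene krt5 fell in both (-0.59 ± 0.10, adjusted p = 0.000211, in OCT20 and -0.56 ± 0.10, adjusted p = 0.000845, in JUN20). Newborn neuron markers fell in 4 of 6 cases in each campaign. The proneural factor gene neurod1 had 139, 143, 152, 147 and 142 CPM in SEC OCT20, against 199, 175, 193, 203 and 199.8 CPM in CTRL OCT20, with every control, replicates 1 and 5 included, above every SEC pool (-0.42 ± 0.06, adjusted p = 4.34e-05).

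Retinal stem and progenitor markers fell in 2 of 6 cases in each campaign, where 8.49% of all genes tested fell in OCT20 and 4.90% in JUN20. The retinal homeobox gene rx2 had 3.05, 3.21, 3.37, 2.54 and 3.18 CPM in SEC OCT20, against 8.39, 6.15, 9.57, 7.38 and 7.12 CPM in CTRL OCT20. All controls, replicates 1 and 5 included, lay far above every SEC pool (-1.33 ± 0.12, adjusted p = 2.73e-08). In JUN20 it fell as well (-0.38 ± 0.11, adjusted p = 0.0263), and the OCT20 effect minus the JUN20 effect passed the threshold (-0.94 ± 0.16, adjusted p = 0.00311). The summed retinal markers were at 323 to 351 CPM in SEC OCT20, 350.0 to 384 CPM in CTRL OCT20, 324 to 342 CPM in SEC JUN20 and 353 to 385 CPM in CTRL JUN20. Summed newborn neuron markers were at 715 to 753 CPM in SEC OCT20, 771 to 842 CPM in CTRL OCT20, 630.4 to 681 CPM in SEC JUN20 and 737 to 769.8 CPM in CTRL JUN20. These sums did not overlap between SEC and CTRL in either campaign, except for the retinal sums of OCT20, which touched. The sums weigh highly expressed genes most, and rx2 was a small part of the retinal ones. In which cells of the retina rx2 was expressed was not tested, so its fall need not be one of dividing cells. Taken singly, 1 of 6 retinal and 1 of 6 newborn neuron markers had every SEC pool below every control in OCT20. In JUN20, 2 of 6 and 3 of 6 had.

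Of 12 tested neural progenitor genes, 2 fell and 1 rose in OCT20 and 1 fell in JUN20. The gene hes6 fell in both (-0.44 ± 0.09, adjusted p = 0.000952, in OCT20 and -0.37 ± 0.09, adjusted p = 0.00621, in JUN20), and sox2 rose in OCT20 (0.16 ± 0.05, adjusted p = 0.0452). Of 8 haematopoietic markers, 1 fell and 1 rose in OCT20, and none passed in JUN20. Of 4 tested germ cell markers none passed in either campaign. Intestine markers had 1 lower and 1 higher of 3 in OCT20 and 1 higher of 3 in JUN20, and none of 4 liver and pancreas markers passed. Of all genes tested, 8.49% fell and 9.54% rose in OCT20, and 4.90% fell and 5.92% rose in JUN20. Beside these shares, a count of 1 or 2 in lists this short says little about a cell type. Summed levels of these 5 lists overlapped between SEC and CTRL in both campaigns, except for the neural progenitors of JUN20, at 257 to 306 CPM in SEC and 316 to 329 CPM in CTRL. No marker tested had a group mean of 0. The part of the marker changes in the members' changes was not tested.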

How the data were processed

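RNA of 20 pools of 10 larvae was sequenced from stranded mRNA libraries with molecular identifiers, per the labels' protocols. The submitters' processing notes name CASAVA, STAR 2.7.8a, SAMtools, DESeq2 3.17 and the build GRCz11. The counting tool, annotation, strand setting and treatment of the molecular identifiers were not stated in these sources. The deposited values are raw counts per gene, and each library's own file equalled its column of the common table in 20 of 20 cases.

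From these counts, 23121 of 32520 genes passed edgeR's filterByExpr (minimum count 10) and 9399 were removed. Counts were scaled by TMM and fitted in 1 model of 4 group means with edgeR 4.0.16's robust quasi-likelihood method in R 4.3.3, with Benjamini-Hochberg adjustment over all genes tested. Contrasts were SEC minus CTRL in each campaign, their difference, and the campaigns compared within CTRL and within SEC. Given with values per library were, in each comparison, the called members, the 8 with the smallest p where more passed, or the 3 with the smallest p where none did, with the member of highest mean CPM in each role and mki67, top2a, cdk1, ccnb1, pcna and mcm5. From each other list, up to 3 called genes per comparison and a few fixed regulators were named. The members and the other lists were chosen with earlier results of these data known. The fits were also run on simulated counts, with each gene drawn on its own and with the same spread in all groups. That run cannot show how the tests behave for members that move together and spread unequally between groups. Alternatives were DESeq2 1.42.0, other scaling and filters, a replicate block, 2 groups alone, the OCT20 division, and each library left out. Sequences and coordinates were not used.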

Additional observations from a re-analysis of the deposited data

Results flagged for a closer look

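For ccna2, the cyclin A2 gene, SEC OCT20 replicate 1 had 13.4 CPM and the other SEC OCT20 libraries had 10.2 to 11.1 CPM. The gap to the nearest library was 0.735 of the range of the group, which is beyond Dixon's critical value for 5 libraries. This was 1 of 100 groups of libraries examined, where chance alone marks about 1 in 20.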

How the results depend on the processing

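The members and tests were recomputed under other scaling, filters, tools, subsets of libraries and a replicate block. For the 43 log2 fold changes of single members named for a comparison, 1177 recomputed values kept their side of the threshold, 40 lost it, 31 gained it and 0 changed sign, and of the summary values 432 stayed close and 30 moved. No member was called higher in JUN20, OCT20, their difference or SEC OCT20 against SEC JUN20 in any of them. Fold changes outside these 43 did change sign: on the low side alone 36 of 38 were negative in OCT20, mcm4 and mcm6 being the exceptions, and on the high side alone 6 of 38 were negative in CTRL OCT20 against CTRL JUN20, where 35 were in all libraries. In these fits by side the JUN20 libraries were kept. The count lower in OCT20 was 4 on the low side alone, where 4.76% of all genes were, and the median -0.90 on the high side alone. With the 2 groups of a comparison fitted alone, 20 members were lower in OCT20, where 5.09% of all genes were, and 9 in JUN20, where 7.21% were. For the difference between campaigns, 2 were lower by DESeq2 (0.976% of all genes) and 3 with the side as a term (0.9% of all genes). On the high side 19 were (1.47% of all genes), with a median of -0.62. For SEC OCT20 against SEC JUN20, 36 were lower with the groups alone, where 7.42% of all genes were, and 38 with the side as a term, where 15.5% were. For CTRL OCT20 against CTRL JUN20, 1 was lower with library totals alone, with the stricter filter and by DESeq2. Of all genes, 3.4%, 3.47% and 4.2% were lower in these fits. In the same comparison 15 were lower with the side as a term, where 12.3% of all genes were, and 23 on the low side, where 12.7% were. The low side gave that comparison a median of -0.45, and the high side one of 0.19, with 1 member, ndc80, higher, where 512 of 23513 genes were. The cause was not tested. With 1 library left out, the counts lower ran from 2 to 4 in JUN20, 21 to 30 in OCT20, 0 to 2 for the difference, 0 to 7 for CTRL and 8 to 29 for SEC between campaigns. The shares of all genes lower ran, in the same order, from 3.38% to 5.53%, 6.61% to 9.43%, 0.103% to 0.439%, 1.71% to 4.85% and 3.23% to 6.74%.

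The labels do not say whether equal replicate numbers pair libraries of SEC and CTRL. Same-numbered deviations from group means correlated between -0.071 and -0.015 in JUN20 and between -0.355 and 0.228 in OCT20. In these campaigns 0 and 1 of 10 libraries correlated best with their own number. Such correlations cannot show whether same-numbered libraries shared a spawn or day. With the replicate block, 2 members were lower in JUN20, 25 in OCT20, 0 for the difference, 1 for CTRL and 23 for SEC between campaigns. The shares of all genes lower in these fits were, in the same order, 3.2%, 6.41%, 0.0865%, 2.88% and 5.74%.

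Scaling by library totals alone gave 1800 genes higher and 724 lower in JUN20 over all genes, against 1368 and 1133 with TMM. For CTRL between campaigns it gave 491 higher and 786 lower, against 654 and 687, for SEC between campaigns 796 and 2771, against 1481 and 1289, and in OCT20 1985 and 2271, against 2205 and 1963.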

Other observations

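Genes outside the cell cycle were also apart in CTRL OCT20 replicates 1 and 5, and 2 of them are given here as examples chosen after their values were seen. The ubiquitin ligase gene fbxo32, which marks muscle wasting and fasting in mammals, had 99.5, 127, 104, 162 and 154 CPM in SEC OCT20, against 165, 48.3, 123, 52.96 and 175 CPM in CTRL OCT20. The insulin-like growth factor binding protein gene igfbp1b had 121, 163, 110.3, 192 and 164 CPM in SEC OCT20, against 139.7, 53.3, 99.4, 36.4 and 236 CPM in CTRL OCT20. For both genes, CTRL OCT20 replicates 1 and 5 held high values, replicate 3 lay between, and replicates 2 and 4 were the lowest of the 10 libraries, the reverse of their order in the summed cell cycle genes, save that igfbp1b was lower in replicate 4 than in replicate 2. In JUN20, fbxo32 had 99.7, 67.4, 90.8, 93.4 and 129.5 CPM in SEC and 91.9, 73.1, 66.7, 109 and 93.8 CPM in CTRL.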
